A study of Danio rerio with 8 samples.

Results

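A set of 38 zebrafish genes of neurogenesis and of the Notch pathway was followed across clutches of *fmr1* mutant and wild type embryos at 2 dpf. The genes were taken by symbol from a list of neural progenitor, proneural and early neuron genes, with a filter on low counts. This list was chosen with earlier results of these data known. All 38 had more than 1 count in at least 4 libraries, and so belonged to the 23567 genes tested of the 32057 in the count table.

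The RNA-seq experiment compared 4 clutches homozygous for the hu2787 allele of *fmr1* (labelled fmr1h2787/h2787; S2, S4, S5 and S8) with wild type clutches (4, named A, D, G and L) at 2 dpf. The hu2787 allele is a non-sense mutation in the orthologue of the gene silenced in fragile X syndrome, which encodes an RNA-binding protein, and the comparison addressed how homozygosity for it alters transcript levels. Each library was polyA+ RNA of many whole embryos pooled from 1 clutch, and no clutches shared a parent, so that a clutch was the replicate and the spread between clutches included that between families. All of the parents, mutant and wild type, descended from the same imported population, in which some fish also carried the w2 allele of *mitfa* in the heterozygous state. The paper states that w2 also occurred in some of the embryo clutches it studied. No parent of a sequenced clutch was homozygous for w2, and a post hoc check in the paper found no great effect of it. The library totals lay between 29296538 and 33205738 counts. The deposited counts were converted to CPM (counts per 1000000 of the library) with TMM scaling factors between 0.891 and 1.12 and compared with the quasi-likelihood test of edgeR.

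In the developing vertebrate nervous system, dividing progenitors are kept from differentiating by SoxB1 transcription factors and by Notch signalling. A cell that starts to differentiate raises proneural bHLH factors, which drive its Delta ligands, and Delta activates the Notch receptors of its neighbours. Activated Notch turns on hairy and enhancer of split (Her) repressors, which silence proneural genes there, so that only some cells leave the progenitor pool at a time. At 2 dpf the brain, retina and spinal cord of the zebrafish hold progenitors beside newly born and functioning neurons. Several of the genes also act elsewhere, for example *neurod1*, *insm1a*, *isl1*, *pax6b* and *ptf1a* in the pancreas.

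The level of *fmr1* itself matched the labels. It was at 19.8, 23.4, 22.8 and 19.5 CPM in mutant clutches, against 54.2, 49.98, 48.1 and 47.1 CPM in wild type clutches, and the genotypes did not overlap (−1.22 on the log2 scale, Benjamini-Hochberg adjusted *p* = 0.00551 in the quasi-likelihood test of edgeR). Throughout, the values of a genotype follow the clutch order S2, S4, S5, S8 or A, D, G, L, and a log2 fold change is the mutant level over the wild type level. Wild type clutches A and D stood apart on the first principal component of all genes tested, which held 29.6% of the variance, with scores of 57.4 and 62.3. Mutant clutches S4 and S8 were at the other end, with scores of −41.4 and −42.5. The remaining clutches L, G, S2 and S5, of both genotypes, had scores between −25.8 and 4.23.

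None of the 38 genes passed an FDR of 0.05, a call made for 0.0127% of all genes tested (3 of 23567). Their adjusted *p*-values ran from 0.528 to 0.973 after Benjamini-Hochberg adjustment of the edgeR quasi-likelihood test. At an unadjusted *p* under 0.05 there were 16 genes of the 38, and all 16 had the lower level in mutant clutches. Over all genes tested 9.41% had such a *p*-value, 5.19% with the lower and 4.22% with the higher level in mutant clutches. The 16 were the 3 SoxB1 genes among the members (*sox2*, *sox3* and *sox19a*), the Notch pathway genes *dla*, *dlb*, *dld*, *notch1a* and *notch3*, the proneural genes *ascl1a* and *atoh1a*, and *neurod4*, *insm1a*, *insm1b*, *dlx2a*, *eomesa* and *tbr1b*. Each of them had a Benjamini-Hochberg adjusted *p*-value of 0.528 in edgeR. No member passed an FDR of 0.05 by the likelihood-ratio test of edgeR, by DESeq2 or by limma-voom. Of all 23567 genes tested, 31, 37 and 2 passed it in these tests, in that order. The same tests put 19, 18 and 19 members at an unadjusted *p* under 0.05, all lower in mutant clutches. The share of all genes tested at such a *p* was 9.43%, 10.5% and 10% in these tests. Of the 38, 31 had a log2 fold change below 0 and 7 above 0. Their median log2 fold change was −0.37, against 0.02 over all genes tested, whose quartiles were −0.16 and 0.26. In 4 members the genotypes did not overlap, all with the lower values in mutant clutches (*sox2*, *neurod4*, *eomesa* and *tbr1b*), against 4.28% of all genes tested in either direction and 2.5% in the lower direction.

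The count of 16 depended on the clutches included. It was 25 without mutant clutch S5, of which 24 were lower and 1 higher in mutant clutches, where 19.5% of all genes tested had such a *p*-value. It was 9 without mutant clutch S4, 8 without mutant clutch S8 and 9 without wild type clutch D, and the share of all genes tested was 6.43%, 5.3% and 5.83% in these fits. Without S5 the genotypes also did not overlap in 23 members, 21 of them lower in mutant clutches, against 19.2% of all genes tested in either direction and 12% in the lower direction. Without both A and D, an omission chosen after the data were seen, 3 members were left (*neurod4*, *dlx2a* and *tbr1b*), beside 5.41% of all genes tested, while 34 members had a log2 fold change below 0 with a median of −0.24. In all 8 fits that left out 1 clutch, 8 members kept an unadjusted *p* under 0.05, namely *sox3*, *sox19a*, *notch3*, *ascl1a*, *atoh1a*, *neurod4*, *insm1a* and *tbr1b*. These fits share most of their clutches, and the same count was not made over all genes tested. In RNA of whole embryos, fewer cells of a type and less RNA per cell cannot be told apart.

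**Figure D1:**
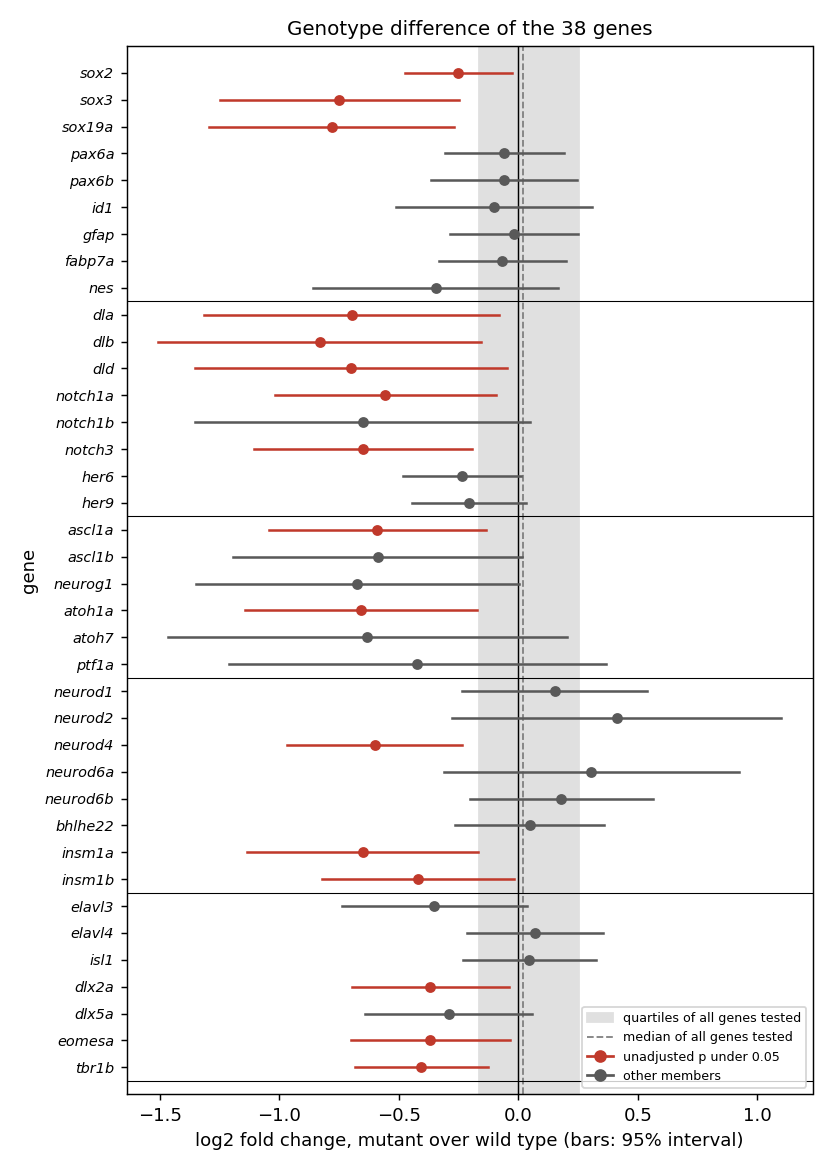
Log2 fold change (mutant over wild type) of each of the 38 genes, ordered by role from progenitor genes at the top to neuronal genes at the bottom, with 95% intervals from the quasi-likelihood fit and, in grey, the quartiles of all genes tested (−0.16 and 0.26). Red marks the 16 genes with an unadjusted *p* under 0.05, all to the left of 0, and the 7 genes to the right of 0 are *neurod1*, *neurod2*, *neurod6a*, *neurod6b*, *bhlhe22*, *elavl4* and *isl1*.

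The plot of fold changes shows how the 5 role groups differed in their values. All genes tested had a median log2 fold change of 0.02. Of them 9.41% were at an unadjusted *p* under 0.05, 5.19% with the lower level in mutant clutches. The 8 Notch pathway members had a median log2 fold change of −0.65, with 5 of 8 at an unadjusted *p* under 0.05. The 6 proneural members had a median of −0.61, with 2 of 6. The 9 progenitor and glial members had a median of −0.10 and 3 of 9, and the 7 early neuron and regional members a median of −0.35 and 3 of 7. The 8 differentiation members fell on both sides of 0, with a median of 0.10, 3 of 8 at an unadjusted *p* under 0.05 and 5 of 8 above 0.

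The Delta ligands sit on the surface of cells entering neurogenesis and signal to Notch on adjacent cells. *dla* (ENSDARG00000010791, Chromosome 1, 54013457 to 54026352, forward strand) was at 57.0, 45.3, 91.2 and 41.6 CPM in mutant clutches, against 123, 119.8, 71.2 and 66.7 CPM in wild type clutches. Clutches A and D had the highest values, S5 lay above G and L, and S2, S4 and S8 lay below all 4 wild type clutches (log2 fold change −0.70, standard error 0.279, 95% interval −1.31 to −0.08). *dlb* (ENSDARG00000004232, Chromosome 5, 36693859 to 36701760, forward strand) was at 59.4, 51.2, 110.3 and 41.5 CPM in mutant clutches, against 151, 145, 87.4 and 83.5 CPM in wild type clutches (log2 fold change −0.83, standard error 0.306, 95% interval −1.51 to −0.16). *dld* (ENSDARG00000020219, Chromosome 13, 6075572 to 6081803, reverse strand) was at 34.9, 30.0, 68.0 and 26.1 CPM in mutant clutches, against 84.4, 73.5, 51.1 and 48.7 CPM in wild type clutches (log2 fold change −0.70, standard error 0.295, 95% interval −1.35 to −0.05). For each of the 3 ligands the genotypes overlapped through S5 alone. The summed level of the 3 was 151, 126, 269 and 109 CPM in mutant clutches, against 359, 338, 209.7 and 199 CPM in wild type clutches. Their log2 fold changes depended on the clutches included. Without A and D that of *dla* was −0.22, that of *dlb* −0.38 and that of *dld* −0.32, none with an unadjusted *p* under 0.05, and without S5 they were −0.99, −1.20 and −1.09.

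The Notch receptors are cut on binding Delta and release a fragment that acts in the nucleus. *notch3* (ENSDARG00000052139, Chromosome 3, 53526025 to 53559581, reverse strand), expressed in neural progenitors, was at 162, 148, 219 and 121 CPM in mutant clutches, against 320.5, 288, 215 and 197 CPM in wild type clutches (log2 fold change −0.65, standard error 0.207, 95% interval −1.11 to −0.19). *notch1a* (Chromosome 21) was at 93.4, 88.3, 133 and 68.9 CPM in mutant clutches, against 166, 167, 121 and 110.0 CPM in wild type clutches (log2 fold change −0.56, standard error 0.209, 95% interval −1.02 to −0.09). Both receptors had S2, S4 and S8 below all wild type clutches and S5 among them. *notch1b* (Chromosome 5), which also acts in the lining of arteries, was at 39.8, 46.1, 32.0 and 23.9 CPM in mutant clutches, against 80.2, 75.8, 35.6 and 31.1 CPM in wild type clutches (log2 fold change −0.65, 95% interval −1.35 to 0.05). It followed another order, in which A and D stood far above the other 6 clutches and the mutant clutches did not separate from G and L. Its log2 fold change was 0.10 without A and D. The genes *her6* and *her9* encode bHLH repressors that hold cells in the progenitor state, *her6* in response to Notch. *her6* was at 27.8, 26.2, 30.9 and 28.1 CPM in mutant clutches, against 34.5, 34.4, 28.0 and 36.2 CPM in wild type clutches (log2 fold change −0.24, 95% interval −0.48 to 0.01). *her9* averaged 28.2 ± 2.81 CPM in mutant clutches and 32.5 ± 2.23 CPM in wild type clutches (SD, n = 4 each; log2 fold change −0.21, 95% interval −0.45 to 0.03). Both *her6* and *her9* had a smaller difference than the ligands, and the genotypes overlapped in both. The Her genes outside the 38 and the related Hey genes had log2 fold changes from −0.82 (*her4.1*) to 0.19 (*heyl*). Some of them, such as *her13* (−0.75) and *hey1* (−0.72), thus differed as much as the ligands.

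**Figure D2:**
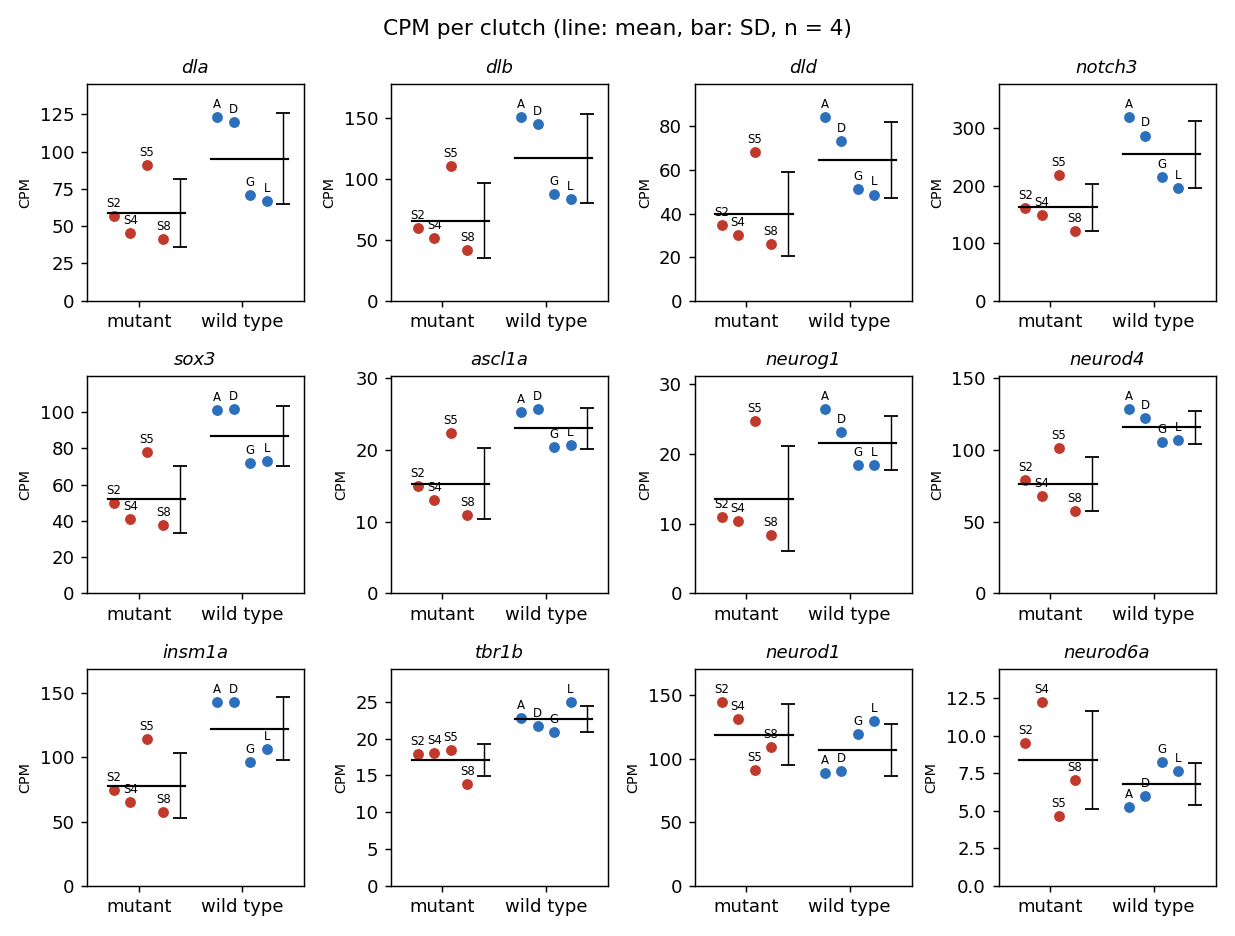
CPM of 12 of the genes in each clutch (red, mutant; blue, wild type), with the mean of 4 clutches as a line and the SD as a bar; each vertical axis starts at 0. In the panels of *dla*, *dlb*, *dld* and *notch3*, S5 lies above G and L while S2, S4 and S8 lie below every wild type clutch; in *tbr1b* and *neurod4* no mutant clutch reaches a wild type clutch.

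Proneural bHLH factors commit progenitors to a neuronal fate. *ascl1a* (ENSDARG00000038386, Chromosome 4, 17417111 to 17419193, forward strand) was at 15.0, 13.1, 22.3 and 10.9 CPM in mutant clutches, against 25.3, 25.7, 20.4 and 20.6 CPM in wild type clutches (log2 fold change −0.59, standard error 0.205, 95% interval −1.04 to −0.14). *atoh1a* (ENSDARG00000055294, Chromosome 8, 29593986 to 29595615, forward strand), a factor of the hindbrain rhombic lip and of hair cells, was at 3.53, 3.94, 5.85 and 3.28 CPM in mutant clutches, against 7.80, 6.97, 5.53 and 5.85 CPM in wild type clutches (log2 fold change −0.66, standard error 0.220, 95% interval −1.14 to −0.17). These were the 2 proneural members with an unadjusted *p* under 0.05. *ascl1b* (Chromosome 7) was at 12.6, 12.2, 24.7 and 9.97 CPM in mutant clutches, against 28.2, 24.4, 16.7 and 19.9 CPM in wild type clutches (log2 fold change −0.59, 95% interval −1.19 to 0.02). *neurog1* (ENSDARG00000056130, Chromosome 14, 26703331 to 26704829, reverse strand), needed for cranial sensory and spinal sensory neurons, was at 10.998, 10.3, 24.7 and 8.30 CPM in mutant clutches, against 26.4, 23.1, 18.4 and 18.5 CPM in wild type clutches (log2 fold change −0.67, 95% interval −1.35 to 0.00). In both genes S2, S4 and S8 were below every wild type clutch and S5 was above all wild type clutches but A. *ptf1a* (Chromosome 2), which directs inhibitory neurons of the hindbrain and retina and the exocrine pancreas, was at 2.67, 1.85, 5.56 and 1.77 CPM in mutant clutches, against 4.01, 5.04, 3.31 and 3.43 CPM in wild type clutches (log2 fold change −0.42, 95% interval −1.21 to 0.37). *atoh7*, the factor that starts retinal ganglion cells, averaged 6.97 ± 4.85 CPM in mutant clutches and 10.8 ± 1.82 CPM in wild type clutches (SD, n = 4 each; log2 fold change −0.63, 95% interval −1.47 to 0.20). In *ptf1a* and *atoh7* the highest of all 8 clutches was the mutant clutch S5. Without S5, *ascl1b*, *neurog1*, *atoh7* and *ptf1a* had log2 fold changes of −0.95, −1.13, −1.23 and −0.91.

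SoxB1 factors keep neural cells proliferating and undifferentiated. *sox3* (ENSDARG00000053569, Chromosome 14, 32742701 to 32744464, reverse strand) was at 50.02, 41.0, 78.2 and 37.9 CPM in mutant clutches, against 101, 102, 72.0 and 73.1 CPM in wild type clutches (log2 fold change −0.75, standard error 0.226, 95% interval −1.25 to −0.25). *sox19a* (ENSDARG00000010770, Chromosome 5, 24199180 to 24201437, reverse strand) was at 48.9, 47.5, 82.4 and 40.5 CPM in mutant clutches, against 116, 110.1, 78.8 and 72.1 CPM in wild type clutches (log2 fold change −0.78, standard error 0.233, 95% interval −1.30 to −0.27). In both, S5 again lay above G and L and the other mutant clutches below every wild type clutch. *sox2* (Chromosome 22) was at 78.0, 77.0, 83.0 and 65.5 CPM in mutant clutches, against 87.5, 91.8, 90.4 and 91.8 CPM in wild type clutches (log2 fold change −0.25, standard error 0.101, 95% interval −0.48 to −0.03). Its genotypes did not overlap, but the difference was small and held an unadjusted *p* under 0.05 in 2 of the 8 fits that left out 1 clutch. Without A and D the *sox3* and *sox19a* differences were −0.48 and −0.45, and neither had an unadjusted *p* under 0.05.

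The other progenitor and glial members overlapped more widely between genotypes, and none had an unadjusted *p* under 0.05. *fabp7a* and *gfap* mark radial glia, the progenitors that span the wall of the neural tube. *fabp7a* was at 447, 469, 463 and 537 CPM in mutant clutches, against 453, 481, 538 and 533 CPM in wild type clutches (log2 fold change −0.07, 95% interval −0.33 to 0.20). *gfap* averaged 188 ± 21.8 CPM in mutant clutches and 189.9 ± 18.0 CPM in wild type clutches (SD, n = 4 each; log2 fold change −0.02, 95% interval −0.29 to 0.25). In these 2 genes the order of clutches mixed both genotypes. *id1*, whose protein binds bHLH factors and keeps them from DNA, was at 277, 259, 477 and 335 CPM in mutant clutches, against 360.5, 356, 333 and 399 CPM in wild type clutches (log2 fold change −0.10, 95% interval −0.51 to 0.31). The range of *id1* over mutant clutches, with S5 highest of all 8, enclosed that over wild type clutches. *nes*, which encodes an intermediate filament of progenitors and muscle, was at 27.3, 22.9, 44.98 and 46.9 CPM in mutant clutches, against 54.2, 49.9, 38.5 and 37.8 CPM in wild type clutches (log2 fold change −0.35, 95% interval −0.86 to 0.17). S2 and S4 were below all other clutches here, and S8, the lowest mutant clutch for most members, was the highest mutant clutch. *pax6a* and *pax6b* pattern the eye, forebrain and hindbrain. *pax6b* was at 65.2, 59.4, 48.9 and 42.6 CPM in mutant clutches, against 52.6, 60.2, 59.4 and 53.3 CPM in wild type clutches (log2 fold change −0.06, 95% interval −0.37 to 0.24), and *pax6a* averaged 83.7 ± 9.10 CPM in mutant clutches and 87.2 ± 7.04 CPM in wild type clutches (SD, n = 4 each; log2 fold change −0.06, 95% interval −0.31 to 0.19).

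The differentiation members split by their order across clutches. *neurod4* (ENSDARG00000003469, Chromosome 23, 28343988 to 28347039, reverse strand), a bHLH factor of cells leaving the cycle, was at 79.0, 67.6, 101 and 57.5 CPM in mutant clutches, against 128, 122, 105 and 107 CPM in wild type clutches (log2 fold change −0.60, standard error 0.166, 95% interval −0.97 to −0.23), with every mutant clutch below every wild type clutch. It had the smallest unadjusted *p* of the 38. *insm1a* (ENSDARG00000091756, Chromosome 20, 48482925 to 48485354, reverse strand), a zinc finger repressor of newly born neurons and endocrine cells, was at 74.7, 65.0, 115 and 57.6 CPM in mutant clutches, against 143, 143, 96.6 and 106 CPM in wild type clutches (log2 fold change −0.65, standard error 0.219, 95% interval −1.13 to −0.17). *insm1b* (Chromosome 17) was at 36.2, 30.8, 54.0 and 28.3 CPM in mutant clutches, against 49.9, 53.2, 47.9 and 48.7 CPM in wild type clutches (log2 fold change −0.42, standard error 0.181, 95% interval −0.82 to −0.02). In *insm1a* and *insm1b*, S5 lay within or above the wild type range and S2, S4 and S8 below it.

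The remaining differentiation factors act in older neurons and had log2 fold changes above 0. *neurod1* (Chromosome 9), active in maturing neurons, photoreceptor precursors and endocrine cells, was at 145, 131, 90.8 and 109 CPM in mutant clutches, against 89.0, 90.7, 119 and 129.5 CPM in wild type clutches (log2 fold change 0.15, 95% interval −0.23 to 0.54). *neurod2* (Chromosome 12) was at 5.08, 5.12, 2.13 and 4.82 CPM in mutant clutches, against 2.95, 2.10, 3.56 and 4.34 CPM in wild type clutches (log2 fold change 0.41, 95% interval −0.28 to 1.10). *neurod6a* (Chromosome 24), a factor of excitatory forebrain neurons, was at 9.53, 12.3, 4.64 and 7.07 CPM in mutant clutches, against 5.27, 5.96, 8.28 and 7.66 CPM in wild type clutches (log2 fold change 0.31, 95% interval −0.31 to 0.92). In these 3 genes S5 was the lowest mutant clutch and A and D were the lowest wild type clutches, which is the reverse of the pattern of the ligands. *neurod6b* averaged 47.3 ± 3.40 CPM in mutant clutches and 41.7 ± 11.5 CPM in wild type clutches (SD, n = 4 each; log2 fold change 0.18, 95% interval −0.20 to 0.57). *bhlhe22*, a bHLH repressor of differentiating neurons, averaged 45.7 ± 2.99 CPM in mutant clutches and 44.2 ± 8.76 CPM in wild type clutches (SD, n = 4 each; log2 fold change 0.05, 95% interval −0.26 to 0.36). Without A and D the log2 fold changes of *neurod1*, *neurod6b* and *bhlhe22* were −0.05, −0.10 and −0.16. None of these 5 genes had an unadjusted *p* under 0.05.

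Among the early neuron and regional members, *tbr1b* and *eomesa* are T-box factors of excitatory neurons of the pallium. *tbr1b* (ENSDARG00000004712, Chromosome 9, 51427826 to 51436377, reverse strand) was at 17.9, 18.1, 18.5 and 13.9 CPM in mutant clutches, against 22.9, 21.8, 20.9 and 25.03 CPM in wild type clutches (log2 fold change −0.41, standard error 0.126, 95% interval −0.68 to −0.13). Here the genotypes did not overlap and S5 lay with the other mutant clutches. *eomesa* (Chromosome 19) was at 16.6, 15.9, 18.5 and 11.9 CPM in mutant clutches, against 18.6, 20.1, 19.0 and 23.5 CPM in wild type clutches (log2 fold change −0.37, standard error 0.150, 95% interval −0.70 to −0.04), with 18.5 CPM in S5 and 18.6 CPM in A at the border of the genotypes. *dlx2a* and *dlx5a* are homeobox factors of inhibitory forebrain neurons and the pharyngeal arches. *dlx2a* (Chromosome 9) was at 18.7, 15.7, 23.4 and 15.7 CPM in mutant clutches, against 21.7, 22.5, 23.5 and 27.2 CPM in wild type clutches (log2 fold change −0.37, standard error 0.149, 95% interval −0.70 to −0.04), and *dlx5a* averaged 24.5 ± 5.83 CPM in mutant clutches and 30.0 ± 1.96 CPM in wild type clutches (SD, n = 4 each; log2 fold change −0.29, 95% interval −0.64 to 0.06). The overlap of genotypes in both came from S5. The differences of *tbr1b* and *dlx2a* were −0.42 and −0.45 without A and D, no smaller than with all 8 clutches.

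The pan-neuronal RNA-binding proteins of the Elavl family differed between paralogues. *elavl3* (Chromosome 3), which is switched on as neurons are born, was at 319.9, 296, 271 and 251 CPM in mutant clutches, against 439.6, 434, 312 and 265 CPM in wild type clutches (log2 fold change −0.35, 95% interval −0.74 to 0.04). Only A and D stood above the range of the mutant clutches, and the log2 fold change of *elavl3* was −0.01 without them. *elavl4* (Chromosome 8), expressed in more mature neurons, was at 288, 302, 227 and 314 CPM in mutant clutches, against 248, 263, 282 and 285 CPM in wild type clutches (log2 fold change 0.07, 95% interval −0.21 to 0.35). *isl1*, a LIM homeobox factor of motor and sensory neurons, averaged 75.7 ± 3.57 CPM in mutant clutches and 73.3 ± 12.3 CPM in wild type clutches (SD, n = 4 each; log2 fold change 0.05, 95% interval −0.23 to 0.32). The genotypes overlapped throughout in *elavl4* and *isl1*, and the log2 fold change of *isl1* was −0.13 without A and D.

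The clutch values repeated an order from gene to gene. *dla*, *dlb*, *dld*, *notch3* and *sox19a* ranked the 8 clutches identically, from A through D, S5, G, L, S2 and S4 down to S8. Over the 38 genes S5 was the highest mutant clutch in 24 and S8 the lowest in 24. Of all 8 clutches, S8 was the lowest in 24 members, against 13.8% of all genes tested. A was the highest in 13 members, against 12.6%. Orders within a genotype were not counted over all genes tested. Clutches A and D were both above G and L in 20 genes and both below them in 10. The pattern of the ligands, with A and D above G and L and S5 above the other mutant clutches, held in 17 genes. Its reverse held in 7, which were *neurod1*, *neurod2*, *neurod6a*, *neurod6b*, *bhlhe22*, *elavl4* and *isl1*, the 7 genes with log2 fold changes above 0. In 21 genes S2, S4 and S8 were all below the 4 wild type clutches, as they were in 12% of all genes tested, and in 17 of these S5 was above at least 1 wild type clutch. Genes of the same 8 libraries are not independent, so these counts describe the libraries.

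**Figure D3:**
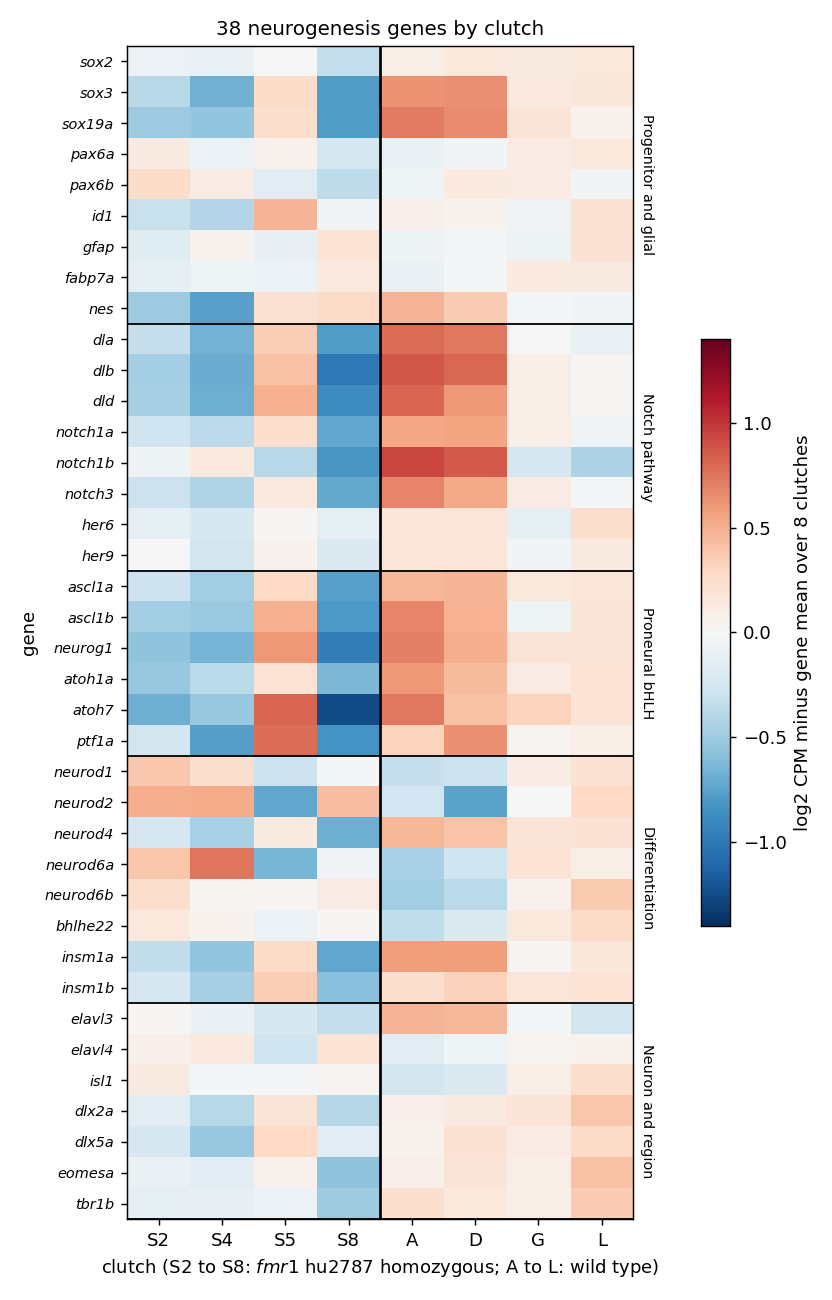
Log2 CPM of each of the 38 genes in each clutch, as the difference from the mean of that gene over the 8 clutches (red above, blue below), with mutant clutches to the left of the line, wild type clutches to the right and role groups divided by horizontal lines. Most Notch pathway, proneural and SoxB1 genes are red in A, D and S5 and blue in S2, S4 and S8, and *neurod1* to *neurod6b*, other than *neurod4*, are blue in A and D.

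The heat map also shows that the spread within a genotype was not the same in each group. The median SD of log2 CPM within genotypes was 0.42 for the Notch pathway members and 0.49 for the proneural members, against 0.31 over all genes tested. For the progenitor and glial members it was 0.21 and for the early neuron and regional members 0.22. The standard errors followed, with a median of 0.290 for the proneural and 0.138 for the progenitor and glial members. At these errors, the log2 fold change of −0.66 in *atoh1a* had an unadjusted *p* under 0.05, and that of −0.63 in *atoh7*, with a standard error of 0.377, did not.

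Levels also differed among the genes. Per kilobase of exon, *fabp7a* was highest at 571 CPM per kb over the 8 clutches, followed by *id1* at 348, *gfap* at 71.2 and *elavl3* at 69.9 CPM per kb, the last 2 being close. The lowest were *neurod2* at 2.35, *neurod6a* at 2.51, *tbr1b* at 3.22 and *atoh1a* at 3.28 CPM per kb. The 3 Delta ligands among the members lay between 15.6 and 29.5 CPM per kb and the 3 receptors among them between 5.76 and 17.7 CPM per kb.

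The 2 members on Chromosome 14 were *sox3* and *neurog1*. This chromosome also holds *fmr1* (20156477 to 20191281), and because parents were chosen by their *fmr1* genotype, other alleles near *fmr1* and the mutation itself cannot be told apart for these 2 genes. All other members lie on other chromosomes, where allele differences between the families were not examined either. The paper considers such differences possible for *cidec* and *plekhf1*, genes that do not lie on Chromosome 14.

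Other genes of the pathway, taken from lists by role, were counted in the same fit. Of 41 further Notch pathway genes tested, 10 (24.4%) were at an unadjusted *p* under 0.05, all lower in mutant clutches. Over all genes tested the share was 9.41%, and 5.19% in the lower direction. The median log2 fold change of the 41 was −0.22. The 10 were *her4.1*, *hey1*, *her4.2*, *psenen*, *her13*, *nrarpb*, *lfng*, *her15.1*, *rbpja* and *hes6*. Not all ligands and receptors had lower levels. The receptor *notch2* had a log2 fold change of −0.03 (95% interval −0.26 to 0.20). The Delta ligands *dlc* and *dll4* had −0.23 and 0.12, and none of these genes was at an unadjusted *p* under 0.05. The *her4* and *her15* genes have near-identical copies, and since only unique reads were counted, reads from stretches they share may be missing and their values are uncertain. In *psenen*, a subunit of the protease that cuts Notch, the level was 22.1, 25.5, 32.4 and 25.5 CPM in mutant clutches, against 38.9, 33.2, 33.4 and 33.1 CPM in wild type clutches (log2 fold change −0.39, standard error 0.129, 95% interval −0.68 to −0.11), and the genotypes did not overlap. *nrarpb*, a feedback inhibitor induced by Notch, was at 16.9, 18.0, 17.9 and 11.4 CPM in mutant clutches, against 54.5, 44.3, 16.5 and 16.2 CPM in wild type clutches, so that A and D alone stood apart. Of 49 further progenitor, proneural and regional genes, 15 (30.6%) were at an unadjusted *p* under 0.05, all lower in mutant clutches, with a median of −0.25 over the list. Those with the smallest *p*-values among genes without overlap were *sox11a*, *pou3f3b*, *pou3f3a*, *foxg1a* and *ebf3a*. The further SoxB1 genes *sox1a*, *sox1b* and *sox19b* had log2 fold changes of −0.19, −0.25 and −0.45, and of them *sox19b* alone was at an unadjusted *p* under 0.05. *sox11a*, a SoxC factor of newly born neurons, was at 228, 188, 241 and 200.01 CPM in mutant clutches, against 336, 312, 295 and 296 CPM in wild type clutches (log2 fold change −0.53, standard error 0.119, 95% interval −0.79 to −0.27), and S5 lay with the other mutant clutches. None of these genes passed an FDR of 0.05.

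Markers of dividing cells and of other cell types varied between the clutches too. All 24 cell cycle genes tested had a log2 fold change below 0, with a median of −0.40. None of the 24 passed an FDR of 0.05, and their lowest Benjamini-Hochberg adjusted *p*-value was 0.528 in edgeR. At an unadjusted *p* under 0.05 there were 12 (50%), all lower in mutant clutches. Over all genes tested the share was 9.41%, and 5.19% in the lower direction. The summed level of the cell cycle genes was 2125, 2044, 3100.3 and 1732 CPM in mutant clutches, against 3464, 3184, 2916 and 2766 CPM in wild type clutches, so that S5 was again within the wild type range. *mki67*, a marker of proliferating cells, was at 261, 246, 330.4 and 216 CPM in mutant clutches, against 437, 421, 360.2 and 336 CPM in wild type clutches (log2 fold change −0.56, standard error 0.154, 95% interval −0.90 to −0.22), and *mki67*, *mcm2* and *mcm6* had no overlap of genotypes. Over all genes tested 4.28% had no overlap, 2.5% with the lower values in mutant clutches. The 25 mature neuron genes had a median log2 fold change of 0.14, with summed levels of 3253 to 3538 CPM in mutant clutches and 3005 to 3716 CPM in wild type clutches. Of these 25, *tubb5* alone (4%) was at an unadjusted *p* under 0.05, a share below that of all genes tested. It was lower in mutant clutches. The 9 photoreceptor genes had a median log2 fold change of 0.73, none at an unadjusted *p* under 0.05, with summed levels of 278, 439, 165 and 188 CPM in mutant clutches, against 114, 118, 249 and 275 CPM in wild type clutches. The 3 clutches with the lowest summed level of photoreceptor genes were thus A, D and S5, the 3 with the highest summed level of *dla*, *dlb* and *dld*. The 13 glial genes had a median log2 fold change of 0.08 and summed to 973 to 1056 CPM in mutant clutches and 1025 to 1143 CPM in wild type clutches. Of them 1 (7.69%), lower in mutant clutches, was at an unadjusted *p* under 0.05, against 9.41% of all genes tested and 5.19% in the lower direction. The 12 pancreas genes had a median of 0.28 and summed to 59.5 to 113 CPM in mutant clutches and 55.2 to 72.4 CPM in wild type clutches, with 1 lower and 2 higher at that *p* (25% in all). Each cell cycle, mature neuron, glial and photoreceptor gene tested was counted in all 8 clutches, and of the pancreas genes *rfx6* and *ela3l* were at 0 in 1 clutch each. The lists outside the 38 genes were not counted in the fits that left out clutches. The part of these lists in the values of the 38 genes was not tested.

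**Figure D4:**
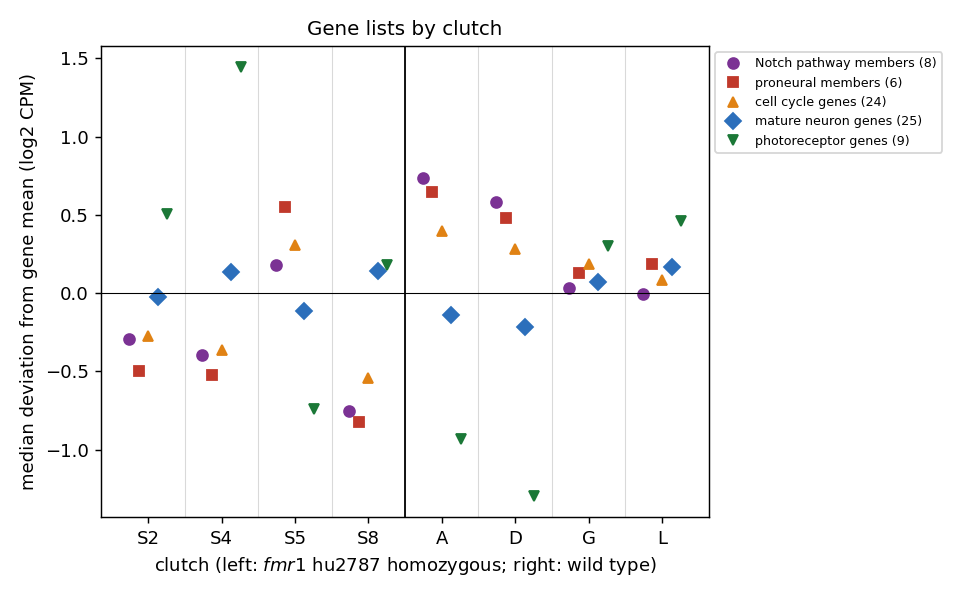
Median deviation in each clutch of the Notch pathway and proneural members and of cell cycle, mature neuron and photoreceptor genes from the mean of each gene over the 8 clutches (log2 CPM), with mutant clutches left of the line and wild type clutches right. The Notch pathway, proneural and cell cycle medians are above 0 in S5, A and D, where the photoreceptor medians are at −0.74, −0.93 and −1.29. In G and L the proneural and cell cycle medians are above 0 too, with photoreceptor medians of 0.30 and 0.46.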

How the data were processed

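PolyA+ RNA of 8 clutches of whole embryos was sequenced. The authors trimmed the reads, used STAR (2.5.3a) for alignment to GRCz11 and featureCounts (1.5.2) for counting, with strand taken into account. Counting took only unique, wholly exonic reads, at a minimum mapping quality of 10. The deposited values are whole-number counts per gene, with no normalisation, and no per-sample column was left unused.

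A gene was retained if 4 or more libraries held over 1 count of it (23567 genes). After TMM normalisation the genotypes were compared in R (4.3.3) by edgeR (4.0.16), using the quasi-likelihood test with genotype as the only factor and Benjamini-Hochberg adjustment over all genes tested. This fit was tested on simulated data in which each gene varied independently. That test therefore does not cover clutch orders shared between genes. The study itself used the likelihood-ratio test of edgeR, which is an alternative here. Its model also used Conditional Quantile Normalisation, which was not run here. The biological coefficient of variation was 0.25, and a prior count of 2 was added for log2 CPM. Reads are not independent molecules. The table names genes by Ensembl ID. Of the 38 symbols, 7 were matched to an ID by a fish name, and 31 by the name of the human orthologue together with at least 10 shared neighbours of 20 in the RefSeq annotation of GRCz12tu, of which no coordinates are given. The name *dld* (deltaD) was assigned by hand to the gene that RefSeq calls *dldh*, because RefSeq uses the symbol *dld* for dihydrolipoamide dehydrogenase. Of 188 genes in the other lists, 175 were matched. No sequences were used here.

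The members, the other lists (Notch pathway, progenitor and proneural, mature neuron, cell cycle, glia, pancreas and photoreceptor) and the tests were chosen with earlier results of these data known. Every member is named. Values of every clutch are given for members with an unadjusted *p* under 0.05 or without overlap of genotypes, and for the 2 highest and 2 lowest members per kilobase in each role group. From the other lists at most 5 genes without overlap and with an unadjusted *p* under 0.05 are named by rule. *nrarpb*, the other Notch genes at that *p*, *heyl*, *arr3a*, *gnat2*, *crx*, *prss1*, *ctrb1*, *ins*, *plp1a*, *mbpa* and *mpz* were named after their values were seen. So were *notch2*, *dlc*, *dll4*, *sox1a*, *sox1b*, *sox19b*, *nr2e3*, *ela2* and *ela3l*. Alternatives were the likelihood-ratio test, DESeq2 (1.42.0), limma-voom (limma 3.58.1), RLE and upper quartile normalisation, other filters, the replicate number as a block, a factor for label numbers, and leaving out clutches.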

Additional observations from a re-analysis of the deposited data

Results flagged for a closer look

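Within each genotype, 4 clutch values of a gene were examined for a clutch far from the other 3, by the ratio of the gap to the range (Dixon's 95% critical value). Chance alone flags about 1 in 20 groups, and 4 of the 76 groups examined were picked out, close to that share. *neurog1* in mutant clutch S5 was at 24.7 CPM, with the other mutant clutches between 8.30 and 10.998 CPM. *neurod2* in mutant clutch S5 was at 2.13 CPM, below the 4.82 to 5.12 CPM of the other mutant clutches. *tbr1b* in mutant clutch S8 was at 13.9 CPM, with the others between 17.9 and 18.5 CPM. *gfap* in wild type clutch L was at 217 CPM, with the other wild type clutches between 179 and 184 CPM.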

How the results depend on the processing

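The count of members past an FDR of 0.05 was 0 under every alternative, beside 0 to 37 of all genes tested. The lowest member adjusted *p* was 0.0744 in edgeR's quasi-likelihood test without S5. The count at an unadjusted *p* under 0.05 (16) was 16 to 19 under the other tests, normalisations and filters, beside 8.82% to 10.5% of all genes tested. It was 18 with a factor for label numbers 1 and 2 against 3 and 4, where the share of all genes tested was 12.9%. It ran from 8 to 25 when 1 clutch was left out, while the share of all genes tested ran from 4.8% to 19.5%, and was 3 without A and D (5.41% of all genes tested), where fewer clutches were fitted. The 25 without S5 and the 15 without L each held 1 member higher in mutant clutches. The count without overlap of genotypes (4) was 4 to 23 when 1 clutch was left out, beside 5.67% to 19.2% of all genes tested. It was 6 without A and D, all with the lower values in mutant clutches, where 7.41% of all genes tested had no overlap in the lower direction. The share of all genes tested without overlap in either direction was near that of the members in that fit. The median log2 fold change of the members (−0.37) ran from −0.47 to −0.28 when 1 clutch was left out. All genes had medians of 0.02 to 0.06 over the normalisations. The label numbers were shared by mutant and wild type clutches, and neither the labels nor the paper describe a pairing. The deviations of clutches with the same number had correlations of 0.25, −0.21, −0.01 and 0.18. They were not set against those of other pairs, so they cannot decide whether the numbers pair the clutches. With the replicate number as a block, 19 members were at an unadjusted *p* under 0.05, beside 9.43% of all genes tested. Of these 19, 14 were among the 16, and none passed an FDR of 0.05. Of 342 single-member values under the alternatives that kept all clutches, 3 lost and 18 gained an unadjusted *p* under 0.05, and of 304 with 1 clutch left out, 40 lost and 16 gained it. No member with an unadjusted *p* under 0.05 changed sign, and 5 other members did without A and D (*notch1b*, *neurod1*, *neurod6b*, *bhlhe22* and *isl1*). With 1 clutch left out, 6 members took the other sign in at least 1 fit (*gfap*, *id1*, *pax6a*, *pax6b*, *bhlhe22* and *isl1*). The log2 fold change of *gfap*, −0.02, was 0.02 with upper quartile normalisation and 0.01 with the filter on 1 CPM. The cause of these shifts was not tested. With 4 clutches a genotype, the median standard error of a member was 0.183.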

Other observations

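Photoreceptor genes gave the widest spread between clutches of the gene lists examined, with a median log2 fold change of 0.73 over 9 genes, 8 above 0 and 1 below. None had an unadjusted *p* under 0.05 or passed an FDR of 0.05. The gene below 0 was *nr2e3*, at 15.7, 13.6, 16.3 and 12.9 CPM in mutant clutches, against 13.4, 16.5, 18.6 and 18.9 CPM in wild type clutches (log2 fold change −0.205, 95% interval −0.53 to 0.12). In *nr2e3*, S5 was the highest mutant clutch. *arr3a*, which encodes a cone arrestin, was at 33.2, 106, 11.2 and 26.3 CPM in mutant clutches, against 7.32, 7.28, 28.7 and 32.2 CPM in wild type clutches (log2 fold change 1.23, 95% interval −0.26 to 2.72). *gnat2*, the cone transducin, was at 6.20, 43.5, 2.47 and 7.56 CPM in mutant clutches, against 1.48, 1.53, 7.19 and 7.66 CPM in wild type clutches. In both genes S4 was far above the other 7 clutches, and S5, A and D were the lowest. *crx*, a transcription factor of photoreceptor precursors, was at 189.8, 187, 123 and 115 CPM in mutant clutches, against 80.6, 84.5, 165 and 184 CPM in wild type clutches (log2 fold change 0.26, 95% interval −0.38 to 0.90), with A and D lowest and without the excess in S4.

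Of the pancreas genes, the digestive enzyme genes *prss1* and *ctrb1* were higher in mutant clutches at an unadjusted *p* under 0.05, as were 4.22% of all genes tested. Both had a Benjamini-Hochberg adjusted *p*-value of 0.528 in edgeR. The digestive enzyme genes *ela2* and *ela3l*, under 1 CPM in every clutch, had log2 fold changes of −0.20 and 1.06, neither at that unadjusted *p*. *prss1* was at 8.01, 18.4, 5.23 and 18.5 CPM in mutant clutches, against 1.83, 1.55, 6.16 and 8.76 CPM in wild type clutches (log2 fold change 1.46, standard error 0.575, 95% interval 0.19 to 2.73). *ctrb1* was at 0.976, 4.76, 0.0736 and 7.78 CPM in mutant clutches, against 0.0642, 0.0576, 0.375 and 1.62 CPM in wild type clutches, with under 1 CPM in 5 of the 8 clutches. *ins*, which encodes insulin, was at 14.4, 7.46, 14.7 and 22.9 CPM in mutant clutches, against 16.3, 12.6, 13.4 and 15.4 CPM in wild type clutches (log2 fold change 0.05, 95% interval −0.55 to 0.65). Among glial genes, the myelin gene *plp1a* was at 37.2, 34.1, 77.0 and 22.4 CPM in mutant clutches, against 161, 130.1, 66.6 and 61.1 CPM in wild type clutches (log2 fold change −1.30, standard error 0.401, 95% interval −2.18 to −0.41), and it ranked the 8 clutches as *dla* did. It lies on Chromosome 14 with *fmr1*, and its Benjamini-Hochberg adjusted *p*-value was 0.528 in edgeR. The other myelin genes of the list had log2 fold changes above 0, with wide intervals (log2 fold change 1.16, 95% interval −1.23 to 3.54 for *mbpa*, and log2 fold change 0.71, 95% interval −0.72 to 2.14 for *mpz*), as did 8 of the 13 glial genes in all. Clutches A and D, highest for *plp1a*, were lowest for *mbpa*. *mbpa* was at 11.5, 17.3, 11.9 and 12.8 CPM in mutant clutches, against 0.161, 0.230, 1.56 and 22.3 CPM in wild type clutches.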
